A study of Mus musculus with 18 samples.

Results

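The mouse genome holds 39 protein-coding Hox genes, those whose symbol is Hoxa, Hoxb, Hoxc or Hoxd followed by a number, and all 39 are among the 52636 genes of the deposited count tables. They were taken whatever their values. A count in some library was present for 24 of them: 6 of 11 in the Hoxa cluster on chromosome 6, 6 of 10 in Hoxb on chromosome 11, 7 of 9 in Hoxc on chromosome 15 and 5 of 9 in Hoxd on chromosome 2. The 18 libraries came from cells sorted from mammary glands of mice that were wild type (WT) or carried Esr1 D542G or Esr1 Y541S, amino acid changes of estrogen receptor alpha (ERα). Per genotype, 3 biological replicates came from a gate for mature luminal cells (ML), the hormone-sensing cells of the ducts. Another 3 came from a gate written N here, to which the labels give a cell type name of its own but the same source name. Each of the 6 groups was treated alike. The mice, aged 6 months, carried hormone pellets, estradiol (E2) with progesterone (P4), before giredestrant, an antagonist of ERα, was dosed by mouth at 30 mg/kg once a day for 4 days. No group went without the antagonist, so none of the values below measures its effect. The series asks whether rare cells that arise under ERα antagonism are present in WT tissue. The labels do not say how the mutations were introduced or whether cells of several mice were pooled.

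Hox proteins are transcription factors with a homeodomain. They bind DNA together with cofactors of the TALE class (Pbx, Meis and Pknox proteins). Polycomb proteins keep the clusters silent, and trithorax proteins keep them active. Within a cluster the genes lie in the order in which they are used along the body axis, low numbers towards the head and high numbers towards the tail, and adult cells of trunk and skin keep a Hox pattern of the position they came from. In the mammary gland of the mouse the Hox9 genes are known for growth of the gland in pregnancy, Hoxc8 for the placing of the mammary placodes, and Hoxc6 and Hoxd10 for development of the adult gland.

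Library totals were 34797778 to 49507144 counts, and 18353 to 20807 genes had a count per library. Markers of the labelled cell type were present in the ML gate, where summed CPM (a count scaled to the library's total and composition) of 12 hormone-sensing luminal markers was 12541 to 29742. In the N gate that sum was 925 to 18087, and all 14 basal and myoepithelial markers were called higher than in ML over the 3 genotypes. WT N 3 stood apart from WT N 1 and 2, with a luminal sum of 18087 against 925 and 1246 and a basal sum of 6737 against 32597 and 40574. Basal sums reached 9661 and 6632 in WT ML 1 and 2, near that of WT N 3, and the sum of luminal progenitor markers was 22387 in Y541S ML 2 and 21700 in Y541S N 2. RNA of skin was present in some libraries. The summed CPM of 17 hair follicle markers was 6411 in WT ML 1, 1320 in WT ML 2 and 4158 in Y541S ML 3, and at most 194 in the other 15. The sum of 12 epidermis markers was 4279 in WT N 1, 11172 in WT N 2, 13212 in Y541S N 3 and 2118 in Y541S ML 3, and at most 880 in the other 14. Krt85 and Tchh of the hair list and Calm4 of the epidermis list were at 0 in all libraries. Skin has a Hox pattern of its own, and the part of these cells in the results below was not tested; their marker sums are given beside the genes they move with. In bulk libraries such as these, fewer cells of a type and less RNA per cell cannot be told apart.

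The 15 Hox genes without a count are not evidence of silence. The counting seems to have dropped reads that lie in more than 1 gene, and for 8 of the 15 (Hoxa3, Hoxa4, Hoxa5, Hoxa6, Hoxb2, Hoxb5, Hoxb6 and Hoxd4) every exon base of the GENCODE M21 annotation lies inside another gene. Hoxa11 and Hoxd11 lie partly inside one. Only 5 of the 15 had no overlapping gene: Hoxb13, Hoxc11, Hoxc12, Hoxd1 and Hoxd12. For these a count of 0 allows up to 3 counts a library, at most 0.083 CPM, a limit that covers counting error only. Among the 24 genes with a count, 11 overlap no other gene, 9 do in part and 4 (Hoxc6, Hoxc8, Hoxc9 and Hoxd8) lie wholly inside an M21 gene span. For Hoxc6, Hoxc8 and Hoxc9 this is a Hoxc5 span of 49987 bases, where the width the authors deposited for Hoxc5 was 3615 bases, so their gene model differed there. Hoxd8 lies inside Hoxd3os1, and its deposited width of 3319 bases equals its M21 span. Why it still held 1804 counts over the 18 libraries was not tested. Hoxb3 was counted over what may be a small part of its exons, since 11.6% of their bases lie outside other M21 genes.

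Of the 24, the 16 that passed the filter on low counts were Hoxa2, Hoxa7 and Hoxa9; Hoxb3, Hoxb4, Hoxb7, Hoxb8 and Hoxb9; Hoxc4, Hoxc5, Hoxc6, Hoxc8 and Hoxc13; and Hoxd8, Hoxd9 and Hoxd10. Genes below the filter, among them Hoxa10, Hoxc9 and Hoxd3, had at most 24 counts, or 0.604 CPM, in any library and were not tested. They include Hoxb1, which patterns the hindbrain, and Hoxa13 and Hoxd13, which pattern limb and genital tract. A gene can pass the filter through the group where it is high, so the 16 do not stand for all 39.

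Levels were low. The deposited width of most Hox genes equals the M21 span with introns, so reads of introns may be among the counts. Levels are compared between genes here only per kilobase of exon, and only for the 7 tested genes whose exons overlap no other M21 gene, since for the others the length that was counted is not known. In the N gate Hoxb7 was at 2.53 ± 2.08 CPM per kb (SD, n = 9) and Hoxc13 at 1.88 ± 3.95, above Hoxc4 at 0.447 ± 0.511, Hoxb9 at 0.423 ± 0.622, Hoxd9 at 0.388 ± 0.330, Hoxb4 at 0.311 ± 0.162 and Hoxb8 at 0.0380 ± 0.0887. In the ML gate Hoxc13 was at 3.93 ± 6.86 CPM per kb (SD, n = 9) and Hoxb7 at 1.42 ± 1.85, with Hoxb4 next at 0.425 ± 0.146. Differences between neighbours in these orders were not tested. Their ranges of mean ± SD met, except for Hoxb4 and Hoxb8 in the N gate, where Hoxb4 was higher in every library. The summed level of all Hox genes ranged from 5.58 CPM in Y541S ML 1 to 181 CPM in WT N 2. Its median was 142 CPM in WT N, 26.6 in WT ML, 22.5 in Y541S N, 11.0 in D542G N, 9.63 in D542G ML and 6.97 in Y541S ML.

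**Figure D1:**
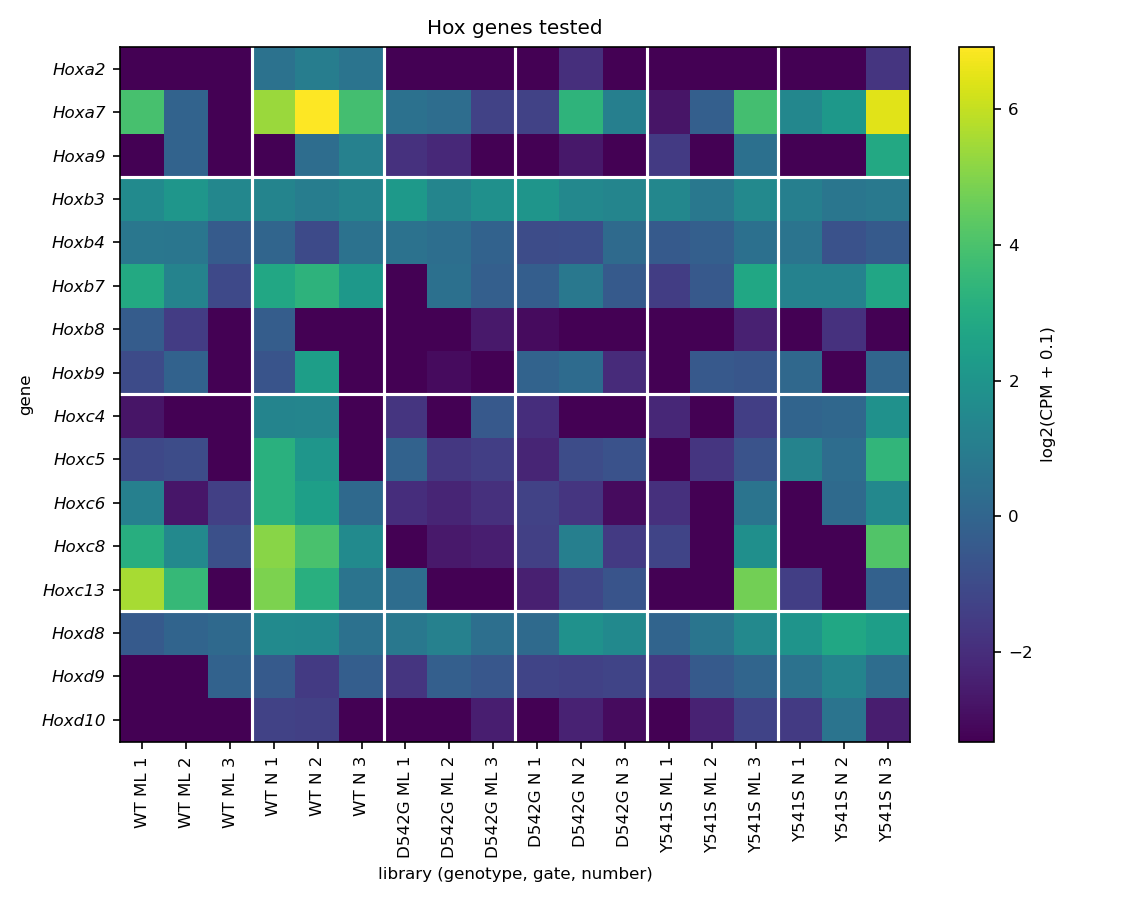
Level of the 16 tested Hox genes, as log2(CPM + 0.1), in each of the 18 libraries; rows are grouped by cluster and columns by group, with white lines between. The brightest cells are Hoxa7 in WT N 2 and Y541S N 3 and Hoxc13 in WT ML 1, while Hoxb3, Hoxb4 and Hoxd8 are present in every library.

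The comparison of gates asks which Hox genes separate the N cells from mature luminal cells. Over the 3 genotypes with equal weight, 2 of the 16 tested Hox genes were higher in N, Hoxa2 and Hoxd8, and 0 were lower (edgeR's quasi-likelihood test, adjusted p under 0.05 over 18298 genes). Of all genes tested, 13.8% were called higher and 13.6% lower, so the share of Hox genes called was not above that of genes at large. One of the called genes, Hoxa2, passed the filter through WT N alone, so its direction was not free of the filter. The log2 fold change was positive for 12 of the 16 and negative for 4, with a median of 1.30 against -0.03 over all genes. An unadjusted p under 0.05 was reached by 8 of 16, where 39.3% of all genes reached it. Other tools called more: DESeq2's Wald test 5 (33.5% of all genes) and limma voom with sample quality weights 6 (42% of all genes). Both called Hoxa2, Hoxd8 and Hoxa7; DESeq2 added Hoxb9 and Hoxc5, and voom added Hoxd9, Hoxd10 and Hoxc4. With genotype and number as a block, 3 were called, Hoxd8, Hoxc5 and Hoxa7 (26.8% of all genes).

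**Figure D2:**
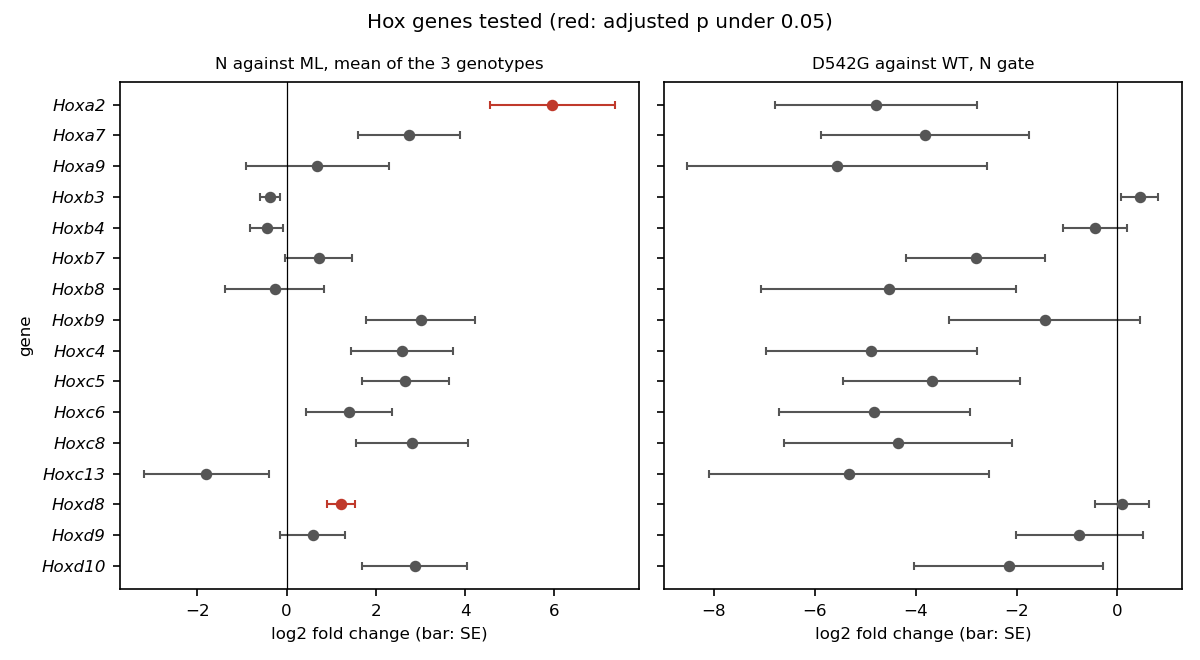
Log2 fold change (point) with its standard error (bar) for the 16 tested Hox genes, N against ML over the 3 genotypes on the left and D542G against WT in the N gate on the right; red marks an adjusted p under 0.05. On the left Hoxa2 at 5.95 and Hoxd8 at 1.22 are the called genes, and on the right 14 of 16 points lie below 0 with none called.

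Hoxa7 and Hoxc5 were called with the replicate block, and Hoxa7 is shown here without Hoxc5. The sequences before the transcription starts of the called genes, Hoxa2 and Hoxd8, and of Hoxa7 follow. They are the 250 bases upstream in RefSeq (GRCm38.p6), 5′ to 3′ on the gene's strand, and capitals mark matches to the motifs named after them.
Hoxa2, chr6:52164832-52165081, minus strand: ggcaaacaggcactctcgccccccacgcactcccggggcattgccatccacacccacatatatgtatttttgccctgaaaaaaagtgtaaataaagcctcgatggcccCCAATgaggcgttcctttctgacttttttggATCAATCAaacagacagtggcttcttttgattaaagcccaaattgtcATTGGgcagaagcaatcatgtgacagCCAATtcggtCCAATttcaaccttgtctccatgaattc
Hoxd8, chr2:74704365-74704614, plus strand: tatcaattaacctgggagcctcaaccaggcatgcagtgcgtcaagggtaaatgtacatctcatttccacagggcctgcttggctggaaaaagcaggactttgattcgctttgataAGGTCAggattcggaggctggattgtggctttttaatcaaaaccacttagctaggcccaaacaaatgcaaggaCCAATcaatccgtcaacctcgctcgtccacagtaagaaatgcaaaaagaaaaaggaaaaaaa
Hoxa7, chr6:52218574-52218823, minus strand: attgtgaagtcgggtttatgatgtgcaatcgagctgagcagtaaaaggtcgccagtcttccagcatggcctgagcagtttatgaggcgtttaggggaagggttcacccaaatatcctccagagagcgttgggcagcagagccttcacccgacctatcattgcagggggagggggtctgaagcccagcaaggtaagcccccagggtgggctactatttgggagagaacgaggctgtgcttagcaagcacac
The motifs were searched on both strands and over 250 bases before to 50 after the start. They were the box named TATAAA, which sets the start of many promoters, and CCAAT, the letters that bind nuclear factor Y. Further motifs were TGATNNAT for joint binding by Hox and Pbx proteins, AGGTCA for single nuclear receptors, and the palindromic estrogen response element with 3 free bases in its middle, whose arms can overlap the nuclear receptor letters. The Hoxa2 window held 4 CCAAT matches and 1 match of the Hox and Pbx letters, the Hoxd8 window 1 CCAAT and 1 AGGTCA, and the Hoxa7 window none of the 5. CCAAT is present in 37.4% of 32851 RefSeq windows of this length and in 15 of the 24 windows of 22 Hox genes. The Hox and Pbx letters are in 8.85% of all windows and 4 of the 24, AGGTCA in 16.3% and 7, TATAAA in 13.6% and 4, and the estrogen response element in 0.0700% and 0. CpG dinucleotides numbered 9, 6 and 9 in the 3 windows, where the median is 7 over all windows and 14.5 over those of Hox genes. The RefSeq start of Hoxa7 lies inside the M21 span of the gene. A match to these letters is a description of the sequence, not a binding site.

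Hoxa2, which patterns the hindbrain and the second branchial arch in the embryo, was counted in WT N cells and nearly nowhere else. Its level was 1.33, 1.91 and 1.46 CPM in WT N 1 to 3 (53, 74 and 59 counts). It was 0 in all 9 ML libraries. In the mutant N libraries it was 0.158 CPM in D542G N 2 and 0.201 CPM in Y541S N 3, 8 counts each, and 0 in the other 4. The WT groups did not overlap, and the 3 WT N libraries were close to each other. Epidermis sums were 4279, 11172 and 532 CPM in WT N 1 to 3 and 13212 CPM in Y541S N 3, and their part in the Hoxa2 values was not tested. Against a floor of 3 counts per ML library, the mean of the 9 N libraries was at least 7.81-fold higher. That of the 3 WT N libraries was at least 20.3-fold higher than WT ML. For D542G and Y541S the same ratio was 0.783 and 0.941, so neither mutant N mean rose above that floor. No library outside WT N held more than 8 counts, so Hoxa2 passed the filter through WT N. Over the 3 genotypes the fitted log2 fold change was 5.95 ± 1.41 (SE), adjusted p = 0.014 by edgeR's quasi-likelihood test. The call was lost without D542G N 2 (4.52) or Y541S N 3 (4.44), either of which leaves a mutant N group at 0, without the 3 libraries high in hair follicle markers (adjusted p = 0.065), without those high in epidermis markers (4.41), and with the replicate block (adjusted p = 0.083). Within WT the fitted log2 fold change was 9.05 ± 2.62 with an adjusted p of 0.10 by edgeR, so the difference was not called there, and voom called it at 6.83. Hoxa2 lies on chromosome 6 at 52162417 to 52164831 (GRCm38, minus strand); its exons overlap Gm28308 in part, and 53.1% of their bases lie outside it.

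Hoxd8, a gene of the trunk part of its cluster (chromosome 2, 74704615 to 74707933, plus strand, inside the span of Hoxd3os1), was counted in all 18 libraries. In ML cells its level was 0.649, 0.886 and 1.03 CPM in WT, 1.59, 2.17 and 1.22 in D542G, and 0.879, 1.47 and 2.71 in Y541S. In N cells it was 2.87, 2.79 and 1.33 CPM in WT, 1.07, 3.53 and 2.84 in D542G, and 3.84, 6.71 and 5.26 in Y541S. The gates did not overlap in WT or Y541S and overlapped in D542G, where D542G N 1 lay below all 3 ML libraries. Of the 9 pairs of equal genotype and number, 8 were higher in N. Over the genotypes the log2 fold change was 1.22 ± 0.31 (SE), adjusted p = 0.0096 by edgeR. By genotype it was 1.45 ± 0.54 in WT, 0.58 ± 0.53 in D542G and 1.64 ± 0.54 in Y541S, with adjusted p of 0.15, 0.56 and 0.085 by edgeR, and the interaction of gate with genotype was called in none of its 3 forms. The call held with each library left out in turn, at 1.11 to 1.39. Without the 4 libraries high in epidermis markers the value was 1.14 with an adjusted p of 0.066. Without the 6 libraries high in either set of skin markers it was 1.05, adjusted p = 0.16, with 12 libraries left.

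**Figure D3:**
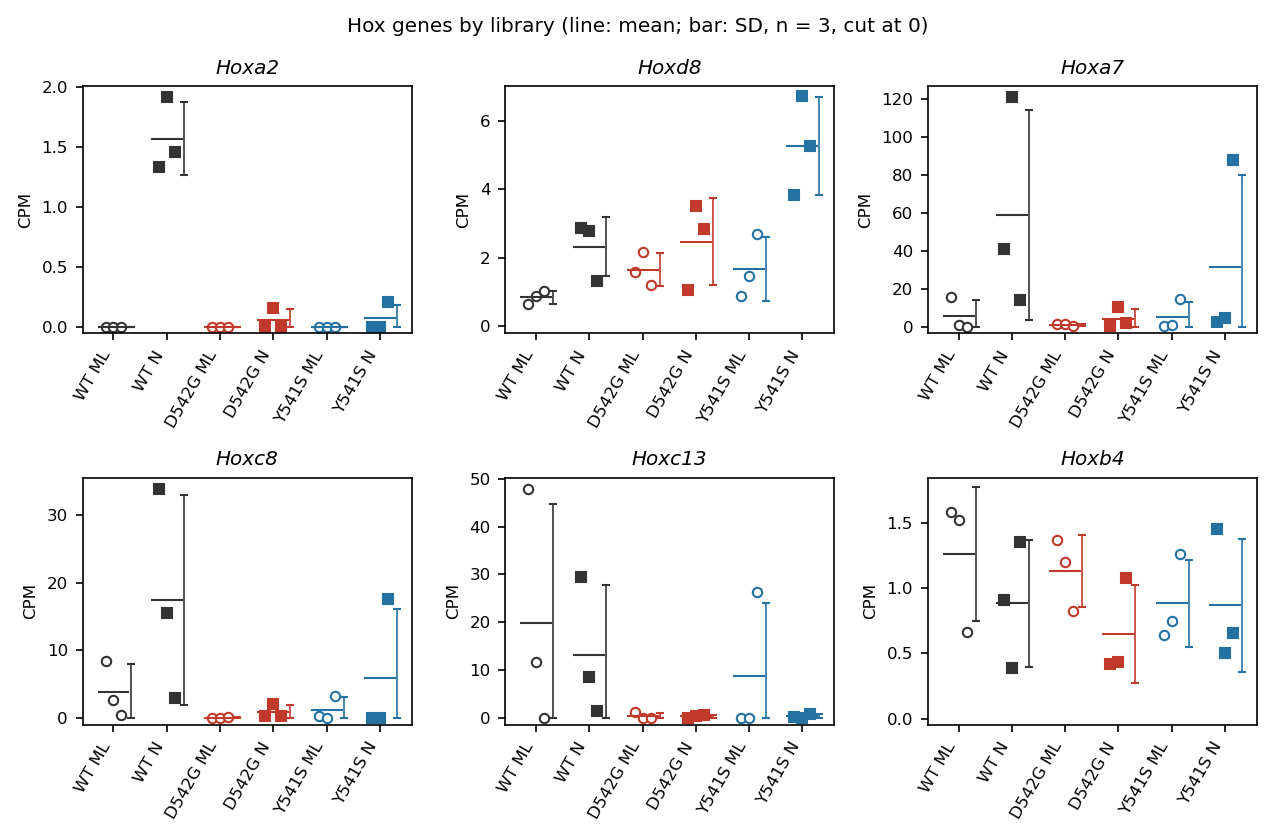
CPM of 6 Hox genes in each library (circles ML, squares N; black WT, red D542G, blue Y541S), with the group mean (line) and SD (bar, n = 3, ended at 0). Hoxa2 is seen in the 3 WT N libraries at 1.33 to 1.91 and at 0.201 or less elsewhere, Hoxd8 is highest in Y541S N, and Hoxa7, Hoxc8 and Hoxc13 are each carried by 1 or more libraries far above the rest of their group.

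Hoxa7 (chromosome 6, 52214491 to 52221854, minus strand), known from keratinocytes, where it takes part in the control of differentiation, ranged from 0 to 121 CPM. In WT it was 15.4, 0.858 and 0 CPM in ML 1 to 3 and 41.0, 121 and 14.2 CPM in N 1 to 3. In Y541S it was 0.0475, 0.750 and 14.3 CPM in ML and 2.58, 4.30 and 87.7 CPM in N. D542G had 1.32, 1.16 and 0.310 CPM in ML and 0.311, 10.1 and 2.06 CPM in N. The 3 highest libraries, WT N 2, Y541S N 3 and WT N 1, were those with the 3 highest epidermis sums. They also had the 3 highest basal sums, at 40574, 39308 and 32597 CPM, and the 3 lowest luminal sums, at 1246, 1099 and 925 CPM. Y541S N 1 had a basal sum of 31389 CPM, an epidermis sum of 15.4 CPM and 2.58 CPM of Hoxa7. Which of these marker sets Hoxa7 goes with was not tested. Among the 14 libraries below an epidermis sum of 1000 CPM, the highest Hoxa7 levels were in WT ML 1 (354 CPM of epidermis markers, and the highest hair sum), WT N 3 (532) and D542G N 2 (880). The 6 libraries high in a skin set had a median of 28.2 CPM of Hoxa7 and the other 12 a median of 1.24 CPM. N was above ML in 8 of 9 pairs, and the log2 fold change over genotypes was 2.75 ± 1.14 (SE), adjusted p = 0.088 by edgeR. It was called with the replicate block (3.51, adjusted p = 0.024) and without WT ML 1 or without Y541S ML 3 (both 3.97). Without the hair-high libraries it was 7.61 and without all skin-high libraries 5.85. In both of these fits WT ML 3, at 0 CPM, was the only WT ML library. Without the epidermis-high libraries alone it was 2.24 and not called. Hoxa9, next to it among the measured genes and 1 of the Hox9 genes, was 7.22 CPM in Y541S N 3, 2.17 in WT N 3, 1.29 in Y541S ML 3, 1.16 in WT N 2 and at most 0.858 CPM in all others, and was at 0 in 9 libraries.

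**Figure D4:**
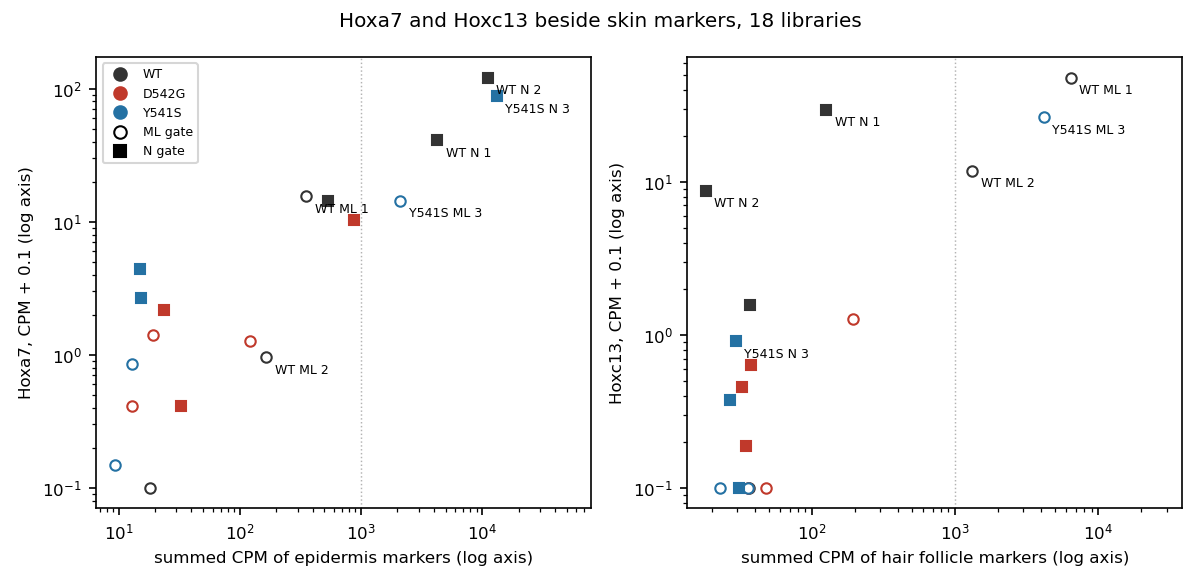
Left, Hoxa7 (CPM + 0.1, log axis) against the summed CPM of epidermis markers (log axis); right, Hoxc13 against the summed CPM of hair follicle markers; 18 libraries, coloured by genotype, circles ML and squares N, with a dotted line at 1000 CPM and names at libraries above it in either set. Hoxa7 is 41.0 CPM or more in the 3 N libraries to the right of the line, and Hoxc13 is 11.7 to 47.8 CPM in the 3 hair-high ML libraries but also 29.5 CPM in WT N 1.

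Hoxc13, a regulator of hair keratin genes (chromosome 15, 102921103 to 102928814, plus strand), was carried by few libraries. It had 47.8, 11.7 and 0 CPM in WT ML 1 to 3 and 29.5, 8.63 and 1.46 CPM in WT N 1 to 3. In Y541S ML it was 0, 0 and 26.3 CPM. The 9 remaining libraries, D542G and Y541S N, had at most 1.16 CPM. All 3 hair-high libraries were among the 4 highest, and the other of the 4, WT N 1, had a hair sum of 127 CPM and an epidermis sum of 4279 CPM. The change between gates over genotypes was -1.80 ± 1.40 on the log2 scale and was not called (adjusted p = 0.37 by edgeR). Without the hair-high libraries it reversed to 6.30. WT ML 3, at 0 CPM, was then the only WT ML library, and the Y541S ML libraries left were at 0 too.

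Hoxc8 (chromosome 15, 102990607 to 102994111, plus strand), expressed from the thoracic level of the embryo, moved with the skin markers too. It was 8.39, 2.71 and 0.461 CPM in WT ML and 33.8, 15.6 and 2.89 CPM in WT N. Y541S N had 0, 0 and 17.6 CPM and Y541S ML 0.333, 0 and 3.32 CPM. D542G had 0, 0.0645 and 0.0827 CPM in ML and 0.289, 2.02 and 0.235 CPM in N, with no overlap of the gates. The 3 highest were WT N 1, Y541S N 3 and WT N 2, the libraries with the 3 highest epidermis sums. They also had the 3 highest basal and the 3 lowest luminal sums. Over genotypes the log2 fold change was 2.81 ± 1.26, adjusted p = 0.11 by edgeR. It turned to -0.74 without the epidermis-high libraries and to -0.83 without Y541S N 3 alone. In both of these fits the Y541S N libraries left, Y541S N 1 and 2, were at 0 CPM. By equal number, N was above ML in every WT and D542G pair, and in Y541S in pair 3 alone.

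Hoxc4, Hoxc5 and Hoxc6, the head-side genes of the cluster, were highest in the same 3 libraries. Hoxc5 was 9.08 and 4.11 CPM in WT N 1 and 2 and 10.7 CPM in Y541S N 3, but 0 in WT N 3, and at most 2.30 CPM in the other 14. Hoxc6 was 8.85 and 5.40 CPM in WT N 1 and 2 and 2.64 CPM in Y541S N 3, with at most 2.09 CPM elsewhere. Hoxc4 was 2.36, 2.43 and 3.52 CPM in these libraries and at most 0.981 CPM elsewhere. In Y541S, where N 1 and N 2 had epidermis sums of 15.4 and 15.1 CPM, Hoxc5 was 2.30 and 1.18 CPM in those libraries, above all 3 Y541S ML libraries at 0, 0.200 and 0.519 CPM. Hoxc4 was 0.874 and 0.981 CPM there, again above Y541S ML at 0.119, 0 and 0.271 CPM. Over genotypes Hoxc5 had a log2 fold change of 2.66 ± 0.98 (adjusted p = 0.056 by edgeR, 0.031 with the replicate block), Hoxc4 of 2.58 ± 1.15 (0.11) and Hoxc6 of 1.39 ± 0.96 (0.31). Without the epidermis-high libraries, 2 of which are WT N, Hoxc5 turned to -0.89 and Hoxc4 to -0.38. WT N 3, at 0 CPM of both genes, was then the only WT N library.

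In the Hoxb cluster, Hoxb3 and Hoxb4, known from blood stem cells and from the neck level of the embryo, had counts in all 18 libraries, Hoxb3 at 1.53 to 4.60 CPM and Hoxb4 at 0.388 to 1.59 CPM. Hoxb3 averaged 2.98 ± 0.90 CPM in ML and 2.32 ± 0.71 CPM in N (SD, n = 9 each). It was lower in N in 8 of 9 pairs, and the WT gates did not overlap, at 2.86, 4.04 and 2.59 CPM in ML and 2.36, 1.91 and 2.37 CPM in N. The log2 fold change over genotypes was -0.38 ± 0.22, adjusted p = 0.22 by edgeR. Hoxb4 averaged 1.09 ± 0.37 CPM in ML and 0.799 ± 0.415 CPM in N, with a log2 fold change of -0.45 ± 0.36 (adjusted p = 0.39 by edgeR). The highest Hoxb4 levels were 1.59 and 1.52 CPM in WT ML 1 and 2, which are high in hair follicle markers, and the lowest was 0.388 CPM in WT N 2, with an epidermis sum of 11172 CPM. In ML its median was 1.52 CPM over the 3 libraries high in a skin set and 0.788 CPM over the other 6.

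Hoxb7, a trunk gene studied in breast tumours, varied more. It was 7.43, 2.27 and 0.384 CPM in WT ML and 7.02, 9.75 and 4.29 CPM in WT N, 0.261, 0.625 and 6.77 CPM in Y541S ML and 2.25, 2.21 and 6.59 CPM in Y541S N, and 0 to 1.60 CPM in D542G. Its 5 highest libraries were WT N 2, WT ML 1, WT N 1, Y541S ML 3 and Y541S N 3, all of them high in hair follicle or epidermis markers. The gates differed by 0.71 ± 0.75 on the log2 scale, adjusted p = 0.52 by edgeR. Hoxb9, 1 of the Hox9 genes that act in gland growth, was 5.20 CPM in WT N 2 and at most 1.09 CPM elsewhere. In D542G it was 0.866, 1.09 and 0.141 CPM in N against 0, 0.0215 and 0 CPM in ML, without overlap. Its log2 fold change over genotypes was 3.00 ± 1.22, adjusted p = 0.081 by edgeR. Hoxb8 reached 0.704 CPM at most and had a log2 fold change of -0.26 ± 1.11 (adjusted p = 0.90 by edgeR).

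In the Hoxd cluster, Hoxd9 was counted in all 9 N and 7 of 9 ML libraries. It was 1.33, 2.39 and 1.16 CPM in Y541S N against 0.238, 0.650 and 0.903 CPM in Y541S ML, without overlap, and 0 to 0.820 CPM in the other 12 libraries. The log2 fold change over genotypes was 0.58 ± 0.73, adjusted p = 0.60 by edgeR, and without WT ML 3, the only WT ML library with a Hoxd9 count, it was 2.77 and called. Hoxd10 was 1.43 CPM in Y541S N 2 and at most 0.316 CPM elsewhere, with a log2 fold change of 2.87 ± 1.18 (adjusted p = 0.090 by edgeR). Summed over the cluster, Hoxd levels were 5.41 to 10.5 CPM in Y541S N and 0.649 to 3.93 CPM in the other 15 libraries. Hoxd8 and Hoxd9 thus shared an order in which all 3 Y541S N libraries came above the Y541S ML, WT N and D542G N libraries; the epidermis sums of these 3 libraries were 15.4, 15.1 and 13212 CPM. Pericyte marker sums were 432, 384 and 309 CPM in them and at most 142 in the other 15, and endothelial sums were 331, 871 and 338 CPM against at most 301. The part of these cells in the Hoxd values was not tested.

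Within each genotype 0 of the 16 Hox genes were called between the gates by edgeR. Of all genes 3.53% were called in WT (2.14% higher and 1.39% lower), 9.2% in D542G (4.71% and 4.49%) and 6.95% in Y541S (4.22% and 2.73%). An unadjusted p under 0.05 was reached by 5 Hox genes in WT, 1 in D542G and 2 in Y541S, against 21.4%, 24.8% and 22.3% of all genes. DESeq2 called 1 in WT (Hoxc4), 1 in D542G (Hoxb9) and 2 in Y541S (Hoxc5 and Hoxd8), where it called 11.8%, 18.6% and 14% of all genes. Voom called 7 in WT, 0 in D542G and 0 in Y541S, against 28.2%, 32% and 14.2% of all genes. It gave WT N 3 a quality weight of 0.180, the lowest of the 18. In WT, edgeR called Hoxc4 when WT N 3 was left out and Hoxd9 when WT ML 3 was left out. Groups of 3 against 3 did not overlap for 2 genes higher in N in WT, 2 in D542G (Hoxc8 and Hoxb9) and 4 in Y541S (Hoxc4, Hoxc5, Hoxd8 and Hoxd9), and for 1 lower in WT (Hoxb3). Those higher in WT N were Hoxd8 and Hoxa2, which passed the filter through WT N alone. Of all genes, 9.29%, 19.4% and 14.8% were higher and 9.65%, 19.2% and 15.2% lower without overlap.

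The comparison of genotypes within the N gate asks whether the mutant receptor changes these cells. In D542G against WT, 0 Hox genes were called by edgeR, where 2.43% of all genes were (1.61% higher and 0.82% lower), and 3 had an unadjusted p under 0.05 (Hoxc6, Hoxc4 and Hoxa2; 18.4% of all genes). The log2 fold change was negative for 14 of 16, with a median of -3.75 against -0.06 over all genes. Hoxa2, Hoxa7, Hoxb7, Hoxc6, Hoxc8 and Hoxc13 were lower in all 3 D542G N libraries than in every WT N library, and Hoxb3 was higher, where 11% and 13% of all genes were. Since Hoxa2 passed the filter through WT N alone, its direction in this comparison was fixed by the filter. Hoxc6 was 0.311, 0.198 and 0.0235 CPM in D542G N against 8.85, 5.40 and 1.04 CPM in WT N, a log2 fold change of -4.82 ± 1.89 (adjusted p = 0.19 by edgeR). Hoxa7 changed by -3.81 ± 2.06 on the log2 scale, adjusted p = 0.34 by edgeR. Epidermis sums were 532 to 11172 CPM in the WT N libraries, and in those of D542G N they lay between 23.9 and 880 CPM, with overlap; their part in these values was not tested. DESeq2 called 1 gene, Hoxc6 (9.82% of all genes), and voom 5, Hoxa2, Hoxa7, Hoxc4, Hoxc6 and Hoxc8 (22.4% of all genes).

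Y541S against WT in the N gate shares the WT libraries with that comparison. It too had 0 Hox genes called by edgeR (1.14% of all genes, 1.02% higher and 0.115% lower), with 1 unadjusted p under 0.05, that of Hoxd8 (14.3% of all genes), and 0 by DESeq2 (5.98% of all genes). Voom called 1, Hoxa2 (10.6% of all genes). Hoxd8 was higher in all 3 Y541S N libraries, with a log2 fold change of 1.18 ± 0.53 (adjusted p = 0.33 by edgeR), and so was Hoxd9 at 1.58 ± 1.27 (adjusted p = 0.62). Hoxa2 and Hoxc13 were lower without overlap, at -4.49 ± 1.98 and -5.18 ± 2.76 (adjusted p of 0.35 and 0.42 by edgeR). For Hoxa2, which passed the filter through WT N alone, the direction was again fixed by the filter. Without overlap 9.45% of all genes were higher and 5.87% lower. D542G against Y541S had 0 calls by edgeR, DESeq2 and voom, where edgeR called 1.43% of all genes (0.421% higher and 1.01% lower) and the other tools 6.67% each, and 3 unadjusted p under 0.05 (Hoxc5, Hoxa9 and Hoxc4; 14.3% of all genes). Hoxb7, Hoxc4, Hoxc5, Hoxd8 and Hoxd9 were lower in D542G without overlap and Hoxb3 higher, where 12.4% and 12% of all genes were.

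In the ML gate 0% of all genes and 0 Hox genes were called between genotypes by edgeR, and 0 Hox genes by DESeq2 or voom, which called at most 0.618% and 0.508% of all genes. An unadjusted p under 0.05 was reached by Hoxc8 and Hoxb9 in D542G against WT, Hoxd10 in Y541S against WT and Hoxb9 in D542G against Y541S, against 6.17%, 5.52% and 4.84% of all genes. Hoxc8 was lower in D542G ML than in every WT ML library (-6.17 ± 2.58 on the log2 scale, adjusted p = 0.81 by edgeR), and 2 of those WT libraries were high in hair follicle markers. Hoxd8 was higher in D542G ML without overlap (0.96 ± 0.54, adjusted p = 0.81 by edgeR), where 5.63% of all genes were higher and 4.73% lower. The gate by genotype interactions had 0 Hox calls by edgeR, DESeq2 and voom. For Hoxa2, at 0 in every ML library, edgeR gave no usable fold change, so it could not compare the gate change between genotypes. Of all genes, DESeq2 called 2.46% for D542G against WT, 1.06% for Y541S against WT and 1.96% for D542G against Y541S. Voom called 6.85%, 1.83% and 1.44% in the same order. EdgeR called 0.109% of all genes for D542G against WT (0.104% higher and 0.00547% lower), 0% for Y541S against WT and 0.109% for D542G against Y541S (0.0601% and 0.0492%). Hoxc4 alone had an unadjusted p under 0.05, in the first (-8.70 ± 2.99, adjusted p = 0.31 by edgeR) and the third of them, where 10.7% and 8.62% of all genes had; for Y541S against WT it was 0 of 16, against 8.41%.

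Of 19 listed noncoding RNAs of the clusters, 6 had a count and 4 were tested; 13, Hotair, Hottip and the microRNAs of the clusters among them, were at 0 in all libraries or absent. Hotairm1, a noncoding RNA of the Hoxa cluster known for its part in myeloid cells, was higher in N at a log2 fold change of 3.14 ± 0.86, adjusted p = 0.015 by edgeR. It was 4.48, 6.00 and 0.370 CPM in WT N and 0.115, 0.402 and 1.91 CPM in Y541S N, highest in the 3 N libraries high in epidermis markers, and at most 0.892 CPM elsewhere. Those 3 N libraries also had the 3 highest basal sums. Hoxb3os, antisense to Hoxb3, was 0.604 to 3.08 CPM in N and 1.52 to 4.11 CPM in ML, at -0.75 ± 0.29 (adjusted p = 0.069 by edgeR). Hoxb5os, at -1.85 ± 1.07, and Halr1, at 1.14 ± 0.77, were not called (adjusted p of 0.22 and 0.30). Reads of such RNAs and of the Hox genes they overlap cannot be told apart where counting did not use the strand, which is not given in the sources used here.

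Among 11 TALE cofactors, all tested, 3 were higher and 1 lower in N over the genotypes, where 13.8% and 13.6% of all genes were. Pknox2, a partner of Pbx proteins also known as Prep2, was higher in N in each genotype, at 15.3 ± 1.46 CPM against 3.24 ± 1.80 in WT, 72.9 ± 6.91 against 12.8 ± 2.86 in D542G and 45.8 ± 23.1 against 6.74 ± 0.838 in Y541S (SD, n = 3). Its log2 fold change was 2.50 ± 0.25, adjusted p = 1.01e-05 by edgeR, with no overlap in any genotype. Meis2 rose by 1.77 ± 0.60 (adjusted p = 0.042 by edgeR). It had 15.8, 10.6 and 7.60 CPM in WT N 1, WT N 2 and Y541S N 3, and at most 3.27 CPM elsewhere. Those 3 N libraries had the 3 highest epidermis sums (4279, 11172 and 13212 CPM) and also the 3 highest basal sums. Tgif2, a repressor of the same class, rose by 1.16 ± 0.34 and Pbx2 fell by 0.54 ± 0.17 (adjusted p of 0.021 and 0.029 by edgeR). Of the cofactors it was Pknox2 whose difference ran through all 3 genotypes, at 2.24, 2.51 and 2.76 on the log2 scale, each called by edgeR.

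Of 27 Polycomb genes 4 were higher and 2 lower in N, beside 13.8% and 13.6% of all genes. Pcgf5, a subunit of a variant complex 1, rose by 0.69 ± 0.15 and Aebp2, a partner of complex 2, by 0.66 ± 0.18, while the chromobox readers Cbx8 and Cbx7 fell by 0.94 ± 0.21 and 0.63 ± 0.16 (log2, adjusted p of 0.015 or less by edgeR for all 4). Of 17 trithorax and Hox-activating genes 2 were higher and 2 lower, again beside 13.8% and 13.6% of all genes: Wdr5 rose by 0.42 ± 0.13 and Mllt1 by 0.34 ± 0.11, and Psip1, which holds MLL complexes on chromatin, fell by 0.62 ± 0.12 and Kmt2b by 0.97 ± 0.34. Both lists had medians near that of all genes, at 0.16 and -0.07 on the log2 scale.

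Retinoic acid switches on head-side Hox genes in the embryo. Of 20 tested genes of its pathway, of 21 listed, 8 were higher and 4 lower in N over the genotypes, with a median log2 fold change of 0.31, where 13.8% and 13.6% of all genes were called. Aldh1a3, which makes retinoic acid and also marks luminal progenitors, was 3.19 to 52.9 CPM in N and 233 to 1155 CPM in ML, without overlap, and fell by 3.95 ± 0.38. Crabp2, which hands retinoic acid to its receptor, fell by 1.25 ± 0.25. Cyp26a1, which breaks retinoic acid down, rose by 7.57 ± 1.28; it was at most 0.0713 CPM in ML, 14.1 CPM in D542G N 1 alone, at most 1.94 CPM in the other N libraries and 0 in WT N 3. These 3 had an adjusted p of 0.0022 or less by edgeR.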

How the data were processed

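Bulk RNA of sorted cells was sequenced in 18 libraries, 3 for each of 6 groups of gate and genotype, taken from the labels. RNA was extracted with a column kit for few cells and libraries were made with a transposase kit, per the labels' protocols. The authors deposited for each library a table of read counts per gene with the gene's width. The counting seems to have dropped reads that lie in more than 1 gene, since 8 Hox genes wholly inside other genes hold 0. No source states it, and 4 Hox genes wholly inside other M21 genes, Hoxd8 among them, do hold counts. An RPKM value stands beside each count in the deposited tables; it was not used here except in checks of the file, since counts allow a count model. The submitters' processing notes name GRCm38; for the aligner, the counting program, its strand setting and the annotation release, the sources used here give nothing. Gene names came from GENCODE M21, which held 52489 of the 52636 identifiers.

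Counts were fitted in edgeR 4.0.16 under R 4.3.3 (TMM scaling, filterByExpr with a minimum count of 10 and total of 15, quasi-likelihood test) with 1 mean per group over all 18 libraries, which left 18298 genes and 12 residual degrees of freedom. The common dispersion was 0.425, a biological coefficient of variation of 0.652. P-values were adjusted by Benjamini-Hochberg over all genes, an adjusted p under 0.05 is a call, and a standard error is the log2 fold change divided by the root of F. CPM used TMM-scaled totals; a floor is 3 counts in a library. The test was tested on simulated data. Alternatives were size factors of the RLE kind, no filter, DESeq2 1.42.0, limma 3.58.1 voom with quality weights, a replicate block and each library left out; leaving out libraries above 1000 CPM of hair follicle or epidermis markers was chosen after seeing the data. Whether equal numbers mark 1 animal is not given. Deviations from group means over the 10000 most abundant genes were correlated between the N and ML libraries of a genotype. They correlated at 0.177 to 0.507 for equal numbers (9 pairs) and at -0.449 to 0.178 for other numbers (18 pairs). The deviations of a group cancel out, so positive values for equal numbers push the others negative on average, and the ranges are not independent. Numbers were taken as pairs for the block in comparisons of gates and their interactions with genotype. In comparisons of genotypes the block was the number alone, and equal numbers across genotypes correlated at -0.522 to 0.313 within a gate. All 39 Hox genes were taken whatever their values; of each other gene list, up to 4 members with the smallest p for N against ML over genotypes and each called cofactor were named. Some genes are not reported here. Members and lists were chosen with earlier results of these data known. Nothing says that replicates were separate mice beyond the word biological, and p-values measure the spread between these samples.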

Additional observations from a re-analysis of the deposited data

How the results depend on the processing

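All values below are log2 fold changes or counts of Hox genes called among those tested. For N against ML over the 3 genotypes, the 2 calls became 5 with DESeq2, 6 with voom, 0 without the libraries high in epidermis markers and 1 without those high in either skin set (13.9% and 14.4% of all genes, against 27.4%), and 1 to 5 with a library left out: 5 without WT N 3 and 1 without D542G N 2 or Y541S N 3. The replicate block gave 3 calls there and 0 in every other comparison. For comparisons of genotypes that block was the number alone, so the 0 calls there are not from pairs of 1 animal. Within WT the count of 0 became 1 with DESeq2, 7 with voom and 0 to 1 with a library left out, within D542G 1 with DESeq2 and within Y541S 2 with DESeq2. For D542G against WT in the N gate it became 1 with DESeq2 and 5 with voom, and for Y541S against WT 1 with voom. The other 7 comparisons stayed at 0 under all alternatives run.

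For single genes, 961 values were recomputed for 37 results. These were the 16 genes over the genotypes and, in other comparisons, those with an unadjusted p under 0.05. Direction and call were kept by 893, while 29 gained a call, 8 lost one and 31 reversed. Only Hoxa2 and Hoxd8 over the genotypes were called to begin with, so for the rest a kept call means that they stayed uncalled. All 8 losses were theirs, 6 of 26 values for Hoxa2 and 2 of 26 for Hoxd8. Most reversals belong to genes carried by few libraries. Over the genotypes, Hoxc13 turned to 0.73 with voom, 0.40 with the replicate block, 6.30 without the hair-high libraries, 0.55 without the epidermis-high ones and 4.79 without both, and ranged from -2.26 to 2.04 with a library left out. Without the epidermis-high libraries, Hoxc8 was -0.74, Hoxb9 -0.096, Hoxc5 -0.89, Hoxa9 -1.52 and Hoxc4 -0.38 over the genotypes, Hoxc5 -6.46 and Hoxc4 -2.72 within WT, Hoxc4 4.24 for D542G against WT in N and 0.42 for the interaction of gate with D542G, and Hoxa9 3.02 for D542G against Y541S in N. Without both sets, Hoxb4 was 0.24 over the genotypes, Hoxc4 4.24, Hoxa9 3.02 and, for D542G against WT in ML, Hoxb9 1.82, which was 1.80 without the hair-high ones. Hoxb8 was 3.17 without the hair-high libraries, and Hoxa9 -2.11 with voom. With a library left out, Hoxc8 ranged from -0.83 to 3.76, Hoxa9 from -2.53 to 2.88, Hoxb8 from -2.36 to 0.90 and Hoxa9 for D542G against Y541S from -9.65 to 2.99. The cause of these changes was not tested, and leaving out 3 to 6 libraries also leaves fewer samples to the fit. Without the epidermis-high libraries WT N is WT N 3 alone, which had 0 CPM of Hoxc4, Hoxc5 and Hoxb9. Without them, or without Y541S N 3 alone, Y541S N is Y541S N 1 and 2, both at 0 CPM of Hoxc8 and Hoxa9. Without the hair-high libraries WT ML is WT ML 3 alone, with 0 CPM of Hoxc13, Hoxb8 and Hoxb9. These reversals thus rest in part on single libraries or whole groups at 0. At levels as low as those of Hoxb8, Hoxd10 or the 8 untested genes, many libraries held few counts or none. What size of difference could be detected at such levels was not tested.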

Other observations

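Homeobox genes outside the 4 clusters were measured too. Of 20 such genes, 5 (Cdx2, Cdx4, Mnx1, Dlx1 and Dlx6) were at 0 in all libraries and 10 were tested, of which 1 was higher and 3 lower in N over the genotypes by edgeR, where 13.8% and 13.6% of all genes were. Meox1, known from somites, was 4.88 to 22.3 CPM in the 9 N libraries and 0.607 to 2.91 CPM in the 9 ML libraries, with no overlap, and rose by 2.67 ± 0.28 (log2, SE). Dlx5, which acts in appendages and bone, fell by 2.69 ± 0.56. Dlx3, a gene of hair and epidermis, fell by 4.05 ± 1.33, and its highest levels, 136 CPM in WT ML 1, 78.7 CPM in Y541S ML 3 and 14.6 CPM in WT ML 2, belonged to the libraries high in hair follicle markers, with at most 12.4 CPM in the others. Msx2, which is also in the hair follicle list, fell by 1.09 ± 0.34.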
